A study of Mus musculus with 84 samples.

Results

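The expression data described here come from the livers of 6 male diabetic mice, 1 sample each, that received rosiglitazone (RSG) by mouth at 280 µmol/kg for 18 days. All were BKS Cg-m+/+ Leprdb/J (db/db) mice, homozygous for a mutation of the leptin receptor that makes them obese and diabetic, bought at 8 weeks of age. Each treated liver was hybridised on a pair of 2-colour arrays, with the dyes swapped, against 1 pool of liver RNA from 6 control db/db mice of the same strain, which carried the same mutation and, by the methods of the study, received the vehicle alone. These 6 samples are 6 of 84 in the series and were chosen by their label; the other groups used below are the livers of 6 db/db mice each at 28 and at 84 µmol/kg RSG over the same 18 days, set against the same pool. Since the pool is 1 control sample, the spread among control mice is not in any comparison with it, and a feature of the pool itself cannot be told apart from an effect of RSG; it cancels in the comparisons between doses. The labels number the mice as biological replicates, and all values below are log2 ratios of a treated mouse over the pool, so that 1 unit is a 2-fold difference in the RNA of the gene per unit of total RNA.

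RSG is a thiazolidinedione, an agonist of the nuclear receptor PPARγ. PPARγ binds DNA as a heterodimer with the retinoid X receptor and switches on genes of fat storage; it is most abundant in adipocytes, and its level is raised in the fatty livers of obese mice. Its relative PPARα, abundant in hepatocytes, drives fatty acid oxidation, and the 2 receptors recognise similar DNA elements. Hepatocytes also make glucose, urea, bile acids, cholesterol and most plasma proteins, and in mice many of their genes differ between the sexes under the control of growth hormone.

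A large part of the measured liver transcripts differed between RSG 280 livers and the pool. Of 26026 probes tested, 13245 differed from the pool at an adjusted p under 0.05, 5574 higher and 7671 lower (limma, moderated test of the group mean against 0, Benjamini-Hochberg). With the spread of the 6 RSG 280 mice alone, 10413 passed the same threshold. Taking the brightest probe of each gene, 9309 of 17820 genes, or 52.2%, were called, 4000 of them (22.4%) higher and 5309 (29.8%) lower. These shares are the background for each count below. Most of the differences were small. Only 414 called genes lay at least 1 log2 unit from the pool, 246 higher and 168 lower, and 54 higher and 19 lower genes lay at least 2 units away. The median over all genes was -0.03. At the thresholds used in the study, an unadjusted p under 0.001 and a fold of at least 1.3, 3637 probes (14.0%) passed, 1676 higher and 1961 lower. The 6 mice were scanned on 2 days, and in fits of each day alone 11388 probes were called over the 4 mice of one day and 8195 over the 2 mice of the other.

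Replicate 2 stood apart from the other 5 mice, and each result below is given with and without it where that matters. Over 17820 genes its ratios lay outside the range of the other 5 mice in 62.2% of genes (below all 5 in 29.1% and above all 5 in 33.1%), against 22.0 to 33.2% for the other replicates. Its ratios correlated with the mean of the other 5 at 0.46 across genes, which are not independent replicates, against 0.80 to 0.88 for the other replicates. Its share of probes above background was within the range of the other mice, as was the SD of the difference between its 2 dye-swap arrays (0.38, against 0.37 to 0.41), and it shared a slide with replicate 1. Without replicate 2, 13653 probes and 9603 genes were called, and 12091 probes were called in the same direction with and without it.

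The highest genes included genes of adipocytes and of lipid handling beside genes with other roles. Cfd, the gene of complement factor D (adipsin), a serine protease that adipocytes secrete, had the highest ratio of the called genes that went the same way in all 6 mice. Its probe at chr10:79295686-79295745 (mm8) gave 6.59, 6.74, 6.73, 6.82, 6.74 and 6.87 in replicates 1 to 6, a narrow spread around a mean of 6.75 ± 0.10 (SD, n = 6), or 108-fold (adjusted p = 5.65e-24). Replicate 2 was in the middle of that range. Elovl7, an elongase of long-chain fatty acids, lay at 5.18, 5.25, 5.30, 5.50, 5.49 and 5.38, with a mean of 5.35 ± 0.13 (adjusted p = 3.73e-23); its second tested probe had a mean of 4.34. Sdcbp2, which encodes the membrane adaptor syntenin 2, had a mean of 4.58 ± 0.43 (lowest, median and highest mouse 3.81, 4.79 and 4.89). Nat8l, the N-acetylaspartate synthase, averaged 4.67 ± 0.75 (3.67, 4.82 and 5.47); its pool channel was above background on only 1 of 12 arrays, so its ratio is less exact than that of Cfd, whose probe was above background on all 24 channels.

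In the next group were a receptor, a transporter and proteins of lipid droplets. Gprc5b, an orphan receptor, averaged 3.91 ± 0.56 and Slc24a3, a sodium, potassium and calcium exchanger, 3.80 ± 0.43. Cidec and Cidea, which fuse lipid droplets, averaged 3.84 ± 0.53 and 3.71 ± 0.81, and the fatty acid binding protein Fabp4 3.71 ± 1.21. In Fabp4, the mice did not sit closely together: replicates 1 to 6 had 2.80, 1.76, 3.95, 4.08, 4.91 and 4.76. Replicate 2 was the lowest of the 6 mice for Nat8l, Sdcbp2, Gprc5b, Cidec, Fabp4, Fabp5, Cidea, Ccdc146 and Duoxa1, although its ratio was 1.76 or more in each. Meig1, known from male germ cells of the mouse, averaged 3.37 ± 0.52, with its pool channel above background on 1 of 12 arrays, and Duoxa1, which encodes a maturation factor of a dual oxidase, 3.23 ± 0.91. A second Duoxa1 probe, matched to another transcript of the gene, averaged -0.14 and was not called (adjusted p = 0.371), so the difference was seen on 1 of 2 probes.

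3 of the 15 highest genes were not well above background on any pool array, so that only a lower bound of the fold can be given. It was computed from normalised log2 signals, with the pool set on each array to at least the lowest signal among probes well above background. Ankrd22, an ankyrin repeat gene, was at least 3.82-fold higher in RSG livers (mean log2 signal 6.85 in RSG and 2.87 in the pool). Fabp5, a fatty acid binding protein, was at least 3.41-fold higher (6.69 in RSG and 2.95 in the pool). Ccdc146, a coiled-coil gene, was at least 4.05-fold higher (6.94 in RSG and 3.47 in the pool). The filter on dim probes could be passed through the RSG channel alone, where these genes were high, so their p is not given as support.

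Among the lowest genes were sulfotransferases, noncoding RNAs of 1 imprinted region, skeletal muscle genes and a hepatocyte transporter. Sult2a2, a hydroxysteroid sulfotransferase, had -6.29, -2.08, -5.47, -4.87, -5.46 and -5.54 in replicates 1 to 6, a mean of -4.95 ± 1.48, with replicate 2 the closest to the pool; without it the mean was -5.53 ± 0.51. Sult2a7 (-2.55 ± 0.99) and Sult2a8 (-2.24 ± 0.70) lay in the same family, whose members are similar in sequence, so a probe may detect more than 1 of them. Hao2, a 2-hydroxy acid oxidase of peroxisomes, averaged -4.70 ± 0.95, with 4 of 12 RSG arrays and 12 of 12 pool arrays above background. Slco1a1, an organic anion transporter of the hepatocyte, averaged -3.36 ± 0.98; here replicate 1, at -1.47, was the one apart from the others, which lay between -4.11 and -3.18. A1bg, a plasma protein gene, averaged -2.98 ± 0.63 and Stap1, a signalling adaptor, -2.10 ± 0.46.

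The 3 tested genes of the imprinted Dlk1-Meg3 region, all long noncoding RNAs expressed from the maternal chromosome, were lower in all 6 mice. Meg3 had -2.86, -3.02, -2.97, -2.98, -2.96 and -2.97, a mean of -2.96 ± 0.05, or 7.79-fold lower in RSG livers (adjusted p = 4.65e-30). The mice lay within a narrow band, with replicate 1 slightly apart. The other 3 tested probes of Meg3 went the same way, the smallest mean being -1.44. After normexp background correction the median of the 3 genes was -1.15, against -2.96 as measured here. Rian was not above background on any of 12 RSG arrays and was on all 12 pool arrays. This makes it at least 4.95-fold lower in RSG livers (mean log2 signal 3.39 in RSG and 7.51 in the pool). Mirg, likewise above background on no RSG array, was at least 1.14-fold lower (3.06 in RSG and 5.39 in the pool). Both could pass the filter on dim probes through the pool channel alone, where they were higher, so their p is not given as support. The mean of Meg3 was -3.02 at 28 µmol/kg and -3.05 at 84 µmol/kg, against the same pool, so what is particular to the pool in this region cannot be told apart from an effect of RSG.

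5 of the 15 lowest genes, Myh1, Myh8, Mb, Myl1 and Ckmt2, encode myosins, myoglobin and creatine kinase of striated muscle. Myh1 had -3.77, -3.66, -3.67, -3.52, -4.17 and -0.31 in replicates 1 to 6. For each of the 5 genes, replicate 6 was between -0.54 and -0.31 while the other 5 mice were at -2.22 or below. Myh1 was above background on 2 of 12 RSG arrays and on all 12 pool arrays, and Myl1 and Ckmt2 on 1 of 12 RSG arrays and 11 of 12 pool arrays. Of 17 skeletal muscle markers tested, 15 were lower and 0 higher, with a median of -1.05, and medians of -1.31 and -1.29 at 28 and 84 µmol/kg. After normexp background correction the median at 280 µmol/kg was -0.37. Only 6 of the 17 were above background on all 24 channels. The others could pass the filter on dim probes through the pool channel alone, so the count of lower markers is not given as support. In bulk liver, fewer cells of a type and less RNA per cell cannot be told apart, and the muscle RNA in the pool cannot be told apart from an effect of RSG.

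**Figure D1:**
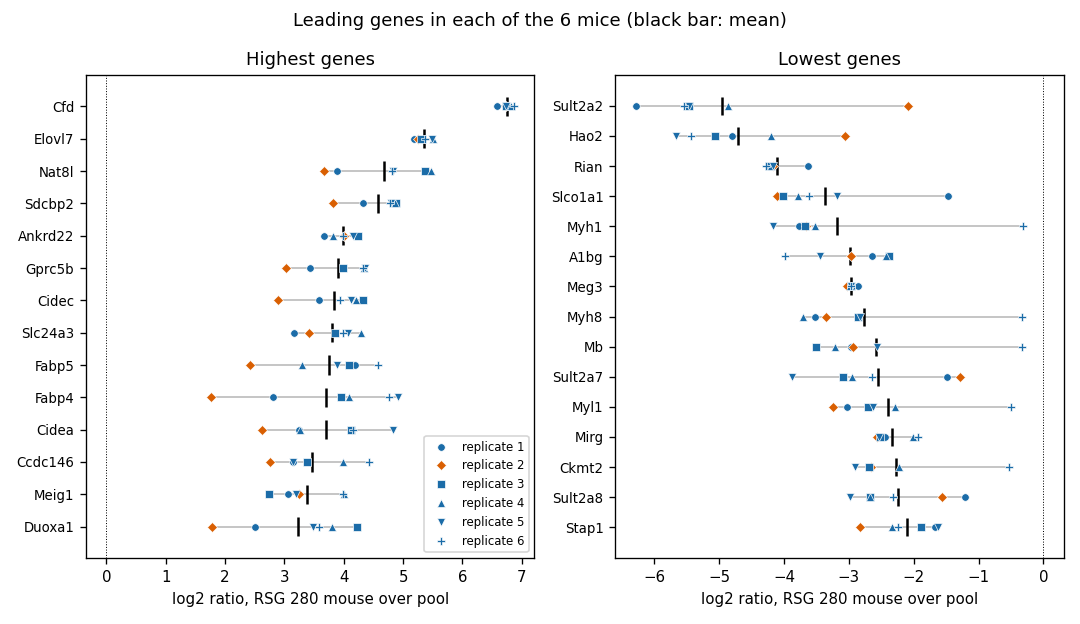
Log2 ratio of each RSG 280 mouse over the pool (x axis) for 14 of the 15 highest and all 15 lowest genes that were called and went the same way in all 6 mice; points are mice, replicate 2 is orange, and the black bar is the mean. Cfd, Elovl7 and Meg3 show little spread, replicate 6 sits near 0 for Myh1, Myh8, Mb, Myl1 and Ckmt2, and replicate 2 is closest to 0 for Sult2a2 and Hao2.

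Genes with large and even differences were not limited to the extremes. Ehhadh, the bifunctional enzyme of peroxisomal oxidation and a target gene of PPARα, lay between 1.57 and 1.77 in the 6 mice (median 1.69, mean 1.68 ± 0.08). On the lower side, Tmem86b, a lysoplasmalogenase, averaged -1.16 ± 0.11, Ccdc151, a gene of motile cilia, -1.50 ± 0.14, and Tnfaip8l1, of the TNFAIP8 family, -1.95 ± 0.19. The SD over the 6 mice was 0.19 or less in each of these 4 genes.

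To see what lies in the promoters of these leading genes, the 250 bases before each RefSeq transcript start (GRCm38.p6) were searched on both strands for AGGTCA, the hexamer bound by nuclear receptors such as PPARγ and HNF4α. Of 32851 mouse promoters of this length, 14.0% held it, and 4260 of 27025 genes held it in at least 1 promoter. Promoters on 1 chromosome, kept in these shares, were left out of the next counts. Of the 15 highest genes, 9 had a promoter used here and 2 held the hexamer in at least 1. Of the 15 lowest, 12 had one and 5 held it in at least 1. A direct repeat of the hexamer with 1 base between, AGGTCANAGGTCA, is the form bound by PPAR and RXR. It was in 0.0335% of all promoters (11 of 27025 genes) and in 0 of 167 named genes with a promoter on any chromosome. With the fourth base of each hexamer left open it was in 0.338% of all promoters (108 of 27025 genes). Of the 167, 1 held it, the P450 gene Cyp2d10. A match is a description of the letters and shows no binding. The promoters of Cfd, the highest gene, of Meg3 and Slco1a1, among the lowest, and of Elovl6, in which replicate 2 had the opposite sign, are shown with the hexamer in capitals, together with the stretch of the Cyp2d10 promoter around its repeat.
Cfd (chr10:79890603-79890852, + strand, no hexamer): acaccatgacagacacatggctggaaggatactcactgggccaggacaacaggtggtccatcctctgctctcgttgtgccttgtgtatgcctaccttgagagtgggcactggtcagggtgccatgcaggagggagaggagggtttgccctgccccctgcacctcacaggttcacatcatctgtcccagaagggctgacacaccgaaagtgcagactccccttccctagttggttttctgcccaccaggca
Meg3 (chr12:109545148-109545397, + strand, 1 of its 2 promoters in the table, hexamer on the opposite strand): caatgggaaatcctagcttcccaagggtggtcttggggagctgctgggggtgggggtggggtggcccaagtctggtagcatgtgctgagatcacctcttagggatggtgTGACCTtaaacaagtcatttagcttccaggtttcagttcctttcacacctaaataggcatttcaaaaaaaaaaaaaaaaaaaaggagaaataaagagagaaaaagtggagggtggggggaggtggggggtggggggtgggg
Slco1a1 (chr6:141946963-141947212, - strand, 2 hexamers): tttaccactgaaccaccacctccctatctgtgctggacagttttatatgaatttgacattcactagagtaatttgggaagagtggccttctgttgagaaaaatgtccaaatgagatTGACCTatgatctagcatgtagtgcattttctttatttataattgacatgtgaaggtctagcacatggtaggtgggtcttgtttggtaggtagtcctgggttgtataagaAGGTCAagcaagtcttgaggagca
Elovl6 (chr3:129532136-129532385, + strand, hexamer on the opposite strand): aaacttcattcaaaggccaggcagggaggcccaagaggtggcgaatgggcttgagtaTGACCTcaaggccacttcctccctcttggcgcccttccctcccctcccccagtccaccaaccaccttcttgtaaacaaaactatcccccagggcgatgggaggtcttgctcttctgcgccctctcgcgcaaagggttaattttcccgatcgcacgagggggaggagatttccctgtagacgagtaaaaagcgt
Cyp2d10 (within chr15:82407195-82407444, - strand): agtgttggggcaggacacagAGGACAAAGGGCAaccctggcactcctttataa
Cyp2d10 itself was lower in RSG livers by a small amount, with a mean of -0.36 ± 0.20, and -0.44 ± 0.03 without replicate 2, which was at 0.05 while the other 5 mice lay between -0.50 and -0.41.

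Peroxisomal and mitochondrial fatty acid oxidation genes were mostly higher. In the peroxisomal list 14 of 22 tested genes were higher and 1 lower (median 0.39), against a median of -0.03 over all genes. The thiolases Acaa1b and Acaa1a, which end each round of peroxisomal oxidation and are near-identical, averaged 1.82 ± 0.23 and 1.77 ± 0.26 (adjusted p = 2.24e-19 and 5.42e-18). The median of this list was 0.31 to 0.49 across mice, with replicate 2 at 0.47, although replicate 2 lay outside the range of the other 5 mice in 16 of the 22 genes, 10 below and 6 above. Acaa1a and Acaa1b were among those below, at 1.304 and 1.40 in replicate 2. Without replicate 2, 13 genes of the list were higher and 0 lower. Of 22 mitochondrial β-oxidation and carnitine genes, 14 were higher and 4 lower (median 0.21), with Acadm, the medium-chain acyl-CoA dehydrogenase, at 0.78 ± 0.19 and Hadh at 0.27 ± 0.09. Cpt1a had the lowest mean of the mitochondrial list, -0.39.

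Lipogenesis genes were mostly higher, with a wide gap between replicate 2 and the rest. Of 22 genes of fatty acid synthesis, desaturation and elongation, 16 were higher and 1 lower with a median of 0.73; without replicate 2, 19 were higher and the median was 1.04. By mouse, the median of the list was 0.83 to 1.20 in the other 5 and -0.20 in replicate 2, which lay below all 5 others in 21 of the 22 genes, against 29.1% of all genes. Scd1, the stearoyl-CoA desaturase, had 2.43, 0.82, 2.43, 2.53, 2.53 and 2.60 in replicates 1 to 6, and Me1, malic enzyme, which supplies NADPH for synthesis, 1.93, 0.33, 1.98, 2.01, 2.07 and 1.92. In both, 5 mice sat close together and replicate 2 was far below. Elovl3 averaged 2.10 ± 0.41 and Aacs, which makes acetoacetyl-CoA for lipid synthesis, 1.24 ± 0.50. Elovl2, an elongase of polyunsaturated fatty acids, went the other way, with -0.78 ± 0.20 and values below 0 in all 6 mice (adjusted p = 1.13e-08).

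Elovl6 and Pnpla3 were among the genes in which replicate 2 took the opposite sign. Elovl6, which elongates palmitate to stearate, had 1.15, -2.47, 0.89, 0.87, 1.13 and 0.91; it was not called with all 6 mice (0.41 ± 1.42, adjusted p = 0.335) and was with the other 5 (0.99 ± 0.14, adjusted p = 0.00498). Pnpla3, a lipid droplet acyl hydrolase, had 3.66, -1.64, 2.85, 2.72, 3.26 and 3.03 and was called either way (2.31 ± 1.96, and 3.10 ± 0.37 without replicate 2). Means at the lower doses, against the same pool, were 1.02 and 0.97 for Elovl6 and 2.87 and 2.65 for Pnpla3 at 28 and 84 µmol/kg, so that the other 5 mice at 280 µmol/kg and the lower doses gave similar values side by side. The pentose phosphate and NADPH list, 8 higher and 1 lower of 10 genes (median 0.57), moved with lipogenesis in replicate 2, where its median was 0.04 against 0.60 to 0.91 in the other 5 mice. G6pdx, the first enzyme of that pathway, averaged 1.79 ± 0.49 (replicate 2 0.92, the other 5 mice 1.56 to 2.29), and H6pd, its counterpart in the endoplasmic reticulum, was lower at -0.14 ± 0.07.

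Fat storage and uptake genes were mostly higher, and the medians of both lists were above 0 in all 6 mice. Of 16 lipid droplet proteins 12 were higher and 1 lower (median 0.76), and of 18 genes that take up and activate fatty acids 13 were higher and 2 lower (median 0.68). Plin4, a coat protein of droplets, had 1.91, 3.60, 3.08, 3.43, 3.05 and 2.83, and was highest in replicate 2. Lpl, the lipase that frees fatty acids from circulating triglyceride, averaged 2.80 ± 0.53 (2.01, 2.97 and 3.45), Fitm1, which helps bud droplets, 0.88 ± 0.21, and Dbi, the acyl-CoA binding protein, 0.71 ± 0.20. Cideb, the member of the Cide family typical of hepatocytes, was lower (-0.37 ± 0.11), as was Slc27a5, the bile acid and very long chain acyl-CoA ligase (-0.48 ± 0.22). In triglyceride synthesis, 11 of 21 genes were higher and 3 lower (median 0.12), among them Gpd1, which makes glycerol 3-phosphate (1.08 ± 0.46), Gpat3 (0.81 ± 0.18), Dgat1, the last acyltransferase (0.51 ± 0.14), and Agpat2. Agpat2 had 0.91 to 1.06 in 5 mice and -0.07 in replicate 2. In lipolysis, 6 of 11 genes were higher and 1 lower (median 0.21), or 6 and 2 without replicate 2; Pnpla2, the adipose triglyceride lipase, averaged 0.74 ± 0.19 and Pnpla6, a lysophospholipase, -0.46 ± 0.11.

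Cholesterol synthesis genes had a median near 0 at the lower doses. It was 0.024 at 28 µmol/kg, 0.0025 at 84 µmol/kg and 0.36 at 280 µmol/kg, but no probe of these genes was called in the comparison of 280 with 28 µmol/kg. At 280 µmol/kg 16 of 26 genes were higher and 2 lower, with a median of 0.44 without replicate 2. The median by mouse was 0.27 to 0.65 in the other 5 mice and -0.11 in replicate 2, which was below all of them in 20 of 26 genes, against 29.1% of all genes. Pmvk, phosphomevalonate kinase, had 1.05, 0.34, 0.68, 0.70, 0.82 and 0.92. Hmgcs1, the cytosolic synthase at the head of the pathway, averaged 0.86 ± 0.35 and Sc5d, a late desaturase, 0.75 ± 0.41 (replicate 2 -0.04, the other 5 mice 0.69 to 1.10). Acat2, the cytosolic thiolase, was lower in all 6 mice (-0.39 ± 0.15). For Hmgcs1 the means at 28 and 84 µmol/kg were 0.51 and 0.53, and the difference of 280 from 28 µmol/kg was 0.35 ± 0.20 (SE, adjusted p = 0.437).

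**Figure D2:**
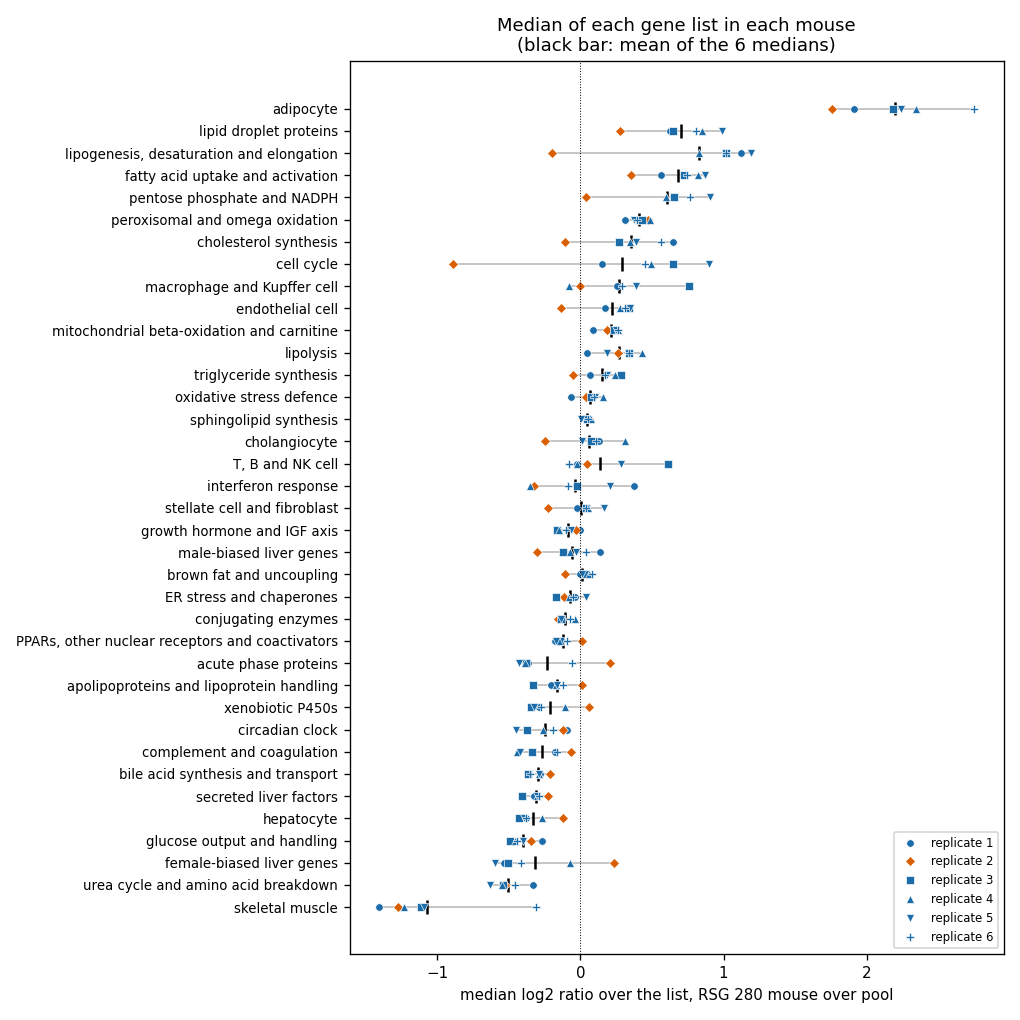
Median log2 ratio over the pool of each gene list with at least 10 tested genes (rows) in each RSG 280 mouse (points; replicate 2 orange, the bar is the mean of the 6 medians). Replicate 2 lies below the other 5 mice for lipogenesis, cell cycle, cholesterol synthesis and pentose phosphate genes and above them for female-biased genes, xenobiotic P450s and acute phase proteins; replicate 6 lies above the rest for skeletal muscle.

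Urea cycle and amino acid breakdown genes were lower, and replicate 2 was not apart. Of 38 tested, 32 were lower and 2 higher with a median of -0.53. By mouse the median was -0.63 to -0.33, with replicate 2 at -0.52. Asl, which splits argininosuccinate, averaged -0.87 ± 0.14 (-1.10, -0.84 and -0.70 in the lowest, median and highest mouse), Slc25a15, the mitochondrial ornithine carrier, -0.81 ± 0.25, Cbs, which starts transsulfuration, -0.68 ± 0.10, and Mat1a, the methionine adenosyltransferase of the adult liver, -0.91 ± 0.22. The 2 higher genes were both subunits of the branched-chain ketoacid dehydrogenase, of which Bckdhb averaged 0.39 ± 0.10 and was higher in all 6 mice.

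In glucose output and handling, 14 of 24 genes were lower and 6 higher (median -0.43, by mouse -0.50 to -0.27). Gckr, the regulator that holds glucokinase in the nucleus, averaged -0.88 ± 0.13, and Slc37a4, which carries glucose 6-phosphate to the phosphatase of the endoplasmic reticulum, -0.89 ± 0.22. Pcx, pyruvate carboxylase, was higher in all 6 mice (0.43, 0.70 and 0.75 in the lowest, median and highest mouse; adjusted p = 2.21e-10).

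Genes for bile acids, drug metabolism and transport were mostly lower. In the bile acid list 14 of 19 were lower and 3 higher (median -0.28). Slco1a4, a transporter of the same cluster on chromosome 6 as Slco1a1, averaged -1.69 ± 0.35, Akr1d1, a reductase of bile acid synthesis, -1.48 ± 0.44, and Abcc3, an export pump of the sinusoidal membrane, was higher at 0.88 ± 0.25, most of all in replicate 2, which had 1.33 against 0.61 to 0.93 in the other 5 mice. Of 29 P450 genes 15 were lower and 5 higher (median -0.24), and without replicate 2, 16 were lower and 2 higher. Cyp2c55 was among the higher (1.82 ± 0.69), with 0.46 in replicate 2 and 1.77 to 2.29 in the other 5 mice, and Cyp2c40 among the lower (-0.65 ± 0.13). Of 38 conjugating enzymes 19 were lower and 10 higher: Ugt2a3, a glucuronosyltransferase, averaged -0.84 ± 0.13, Ugdh, which makes its UDP-glucuronate, 0.86 ± 0.25, and Gstt2, a glutathione transferase, 0.66 ± 0.10.

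Of 24 female-biased liver genes, 11 were lower and 5 higher (median -0.45), and without replicate 2, 13 were lower and 2 higher (median -0.57); of 19 male-biased genes 8 were lower and 6 higher (median -0.02). All mice were male. Sult2a2, Hao2 and A1bg belong to the female-biased list, whose highest member was Abcd2 at 1.32. Slco1a1, also among the lowest genes, belongs to the male-biased list and was its lowest member at -3.36. In replicate 2 the median of that list was 0.23, against -0.60 to -0.07 in the other 5 mice, and replicate 2 was above all 5 others in 18 of the 24 genes, against 33.1% of all genes. Cux2, a transcription factor of the female mouse liver, had -1.09, 1.48, -1.36, -0.10, -1.79 and -0.45; replicate 2 alone was above the pool, and the gene was not called with all 6 mice (adjusted p = 0.127) while it was without it (adjusted p = 0.00549). In the growth hormone and IGF axis 6 of 16 genes were lower and 3 higher (median -0.02), and without replicate 2, 6 were lower and 5 higher (median -0.13). Igfbp4, an IGF binding protein, averaged -0.76 ± 0.14, Igfals, which holds IGF1 in the circulation, -0.61 ± 0.12, Prlr, the prolactin receptor, -0.60 ± 0.16, and Stat5b, which carries the growth hormone signal, -0.36 ± 0.06. Socs2, a feedback inhibitor of that signal, was higher, with 0.63, 1.91, 1.65, 0.81, 0.77 and 0.81.

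Complement, coagulation and other secreted factor genes of the liver were mostly lower, while acute phase and lipoprotein genes went both ways. Of 39 complement and coagulation genes 26 were lower and 4 higher (median -0.26), or 29 and 5 without replicate 2 (median -0.31). Among the lower were Mbl1, a mannose-binding lectin (-0.67 ± 0.07), and F5, coagulation factor V (-0.48 ± 0.18). Of 28 acute phase genes 10 were lower and 5 higher, 53.6% called against 52.2% of all genes. Their median was -0.18, and 0.21 in replicate 2. Crp averaged -0.70 ± 0.21 and Apcs, the serum amyloid P component, 1.08 ± 0.23, so that these relatives of the pentraxin family went opposite ways in all 6 mice. Of 18 secreted liver factors 12 were lower and 3 higher (median -0.32), and Lect2 averaged -0.73 ± 0.20. Among 29 apolipoprotein and lipoprotein genes 14 were lower and 10 higher. Pltp, which transfers phospholipid between lipoproteins, averaged 1.87 ± 0.37, Apoa1, the main protein of HDL, 1.46 ± 0.24, and Abca1, which loads it with lipid, 0.57 ± 0.13, each higher in all 6 mice.

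Among nuclear receptors, clock and stress genes both directions were seen. Of 30 receptors and coactivators 13 were lower and 4 higher (median -0.12), or 15 and 4 without replicate 2 (median -0.15). Hnf4a averaged -0.48 ± 0.18 (replicate 2 -0.12, the other 5 mice -0.61 to -0.47). Rxra averaged -0.44 ± 0.17 on its brightest probe, and 0.09 on the other, which was not called (adjusted p = 0.251). Pparg, chosen after its values were seen because RSG binds its product, was at 0.26, 0.37, 0.46, 0.35, 0.27 and 0.20, a 1.25-fold difference (adjusted p = 1.46e-05). In the clock list 12 of 19 genes were lower and 1 higher, for example Tef (-0.46 ± 0.23) and Nfil3 (-0.58 ± 0.28), 2 transcription factors that compete for the same sites. Of 24 genes of oxidative stress defence 10 were higher and 7 lower, with the peroxidases Gpx4 at 0.85 ± 0.24 and Prdx6 at -0.51 ± 0.08. Metallothionein Mt2 had -3.21, 0.20, -2.07, -1.67, -2.69 and -0.73, replicate 2 being the one at the level of the pool. Of 25 endoplasmic reticulum stress genes 7 were lower and 4 higher, 44.0% called against 52.2% of all genes, with Herpud1, of the degradation machinery, at 0.02 in replicate 2 and -1.20 to -0.73 in the other 5 mice, and Asns, asparagine synthetase, higher at 0.95 ± 0.24. Of 23 sphingolipid genes 9 were higher and 4 lower; Sptlc2, a subunit of the enzyme that starts the pathway, averaged 0.91 ± 0.13. Of 25 interferon response genes 6 were higher and 0 lower (1 lower without replicate 2), or 24.0% called against 52.2% of all genes; Usp18, an antagonist of the response, averaged 1.31 ± 0.21 and Oas1a, an antiviral synthetase, 0.95 ± 0.68.

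In the cell cycle list, replicate 2 set the count. Of 29 genes 9 were higher and 0 lower with all 6 mice (median 0.27), or 31.0% called against 52.2% of all genes. Without replicate 2, 18 were higher (median 0.54). Replicate 2 was below every other mouse in 27 of the 29, against 29.1% of all genes, and its median was -0.89, against 0.15 to 0.90 in the other 5 mice. Mcm2, a subunit of the replicative helicase, had 1.09, -0.24, 1.38, 1.11, 1.42 and 1.16, and Mcm4 0.78, -0.19, 1.17, 0.74, 1.12 and 0.71. Ccnd1, cyclin D1, had 0.73, 0.01, 1.25, 0.68, 1.14 and 0.38 (adjusted p = 0.00322, and 0.00110 without replicate 2). Pbk, a mitotic kinase, had 0.23, -2.88, 1.66, 1.39, 2.22 and 0.60; it was above background on 9 of 12 RSG arrays and 6 of 12 pool arrays and was not called with all 6 mice (adjusted p = 0.266). The median of the list was 0.77 at 28 µmol/kg and 0.49 at 84 µmol/kg.

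Markers of the cell types of the sample were checked beside these groups. All 16 tested hepatocyte markers were above background on all 24 channels of the 6 pairs; 11 were lower and 3 higher, with a median of -0.37 that was -0.12 in replicate 2. Of 13 tested adipocyte markers 10 were higher and 1 lower, with a median of 2.33 (1.76 to 2.75 by mouse); with another background correction, normexp, the median was 1.33. 2 defining markers of adipocytes, chosen for mention after their values were seen, did not follow. Adipoq, the gene of adiponectin, had -0.42, -0.03, -1.04, -0.73, -1.33 and 0.40 and was above background on 6 of 12 RSG arrays and all 12 pool arrays (adjusted p = 0.116), and Plin1, the main droplet coat of adipocytes, had 0.29, -0.40, -0.22, -0.02, 0.16 and 0.37 and was above background on 3 and 2 of 12 arrays (adjusted p = 0.897). Of 14 endothelial markers 11 were higher and 0 lower (median 0.23, and -0.14 in replicate 2, the only mouse below 0). Without replicate 2 all 14 were higher (median 0.29). Among the higher were Kdr, a receptor of VEGF (0.44 ± 0.14), and Gpr182 (0.67 ± 0.23). Of 15 stellate cell and fibroblast markers 7 were higher and 2 lower (median -0.02), or 7 and 3 without replicate 2. Timp1 was one of the lower (-0.34 ± 0.07). Replicate 2 was below all 5 other mice in 9 of the 15, against 29.1% of all genes. Of 18 macrophage and Kupffer cell markers 7 were higher and 1 lower (median 0.25, -0.08 to 0.76 by mouse), or 10 and 1 without replicate 2. Of 11 cholangiocyte markers 3 were higher (4 without replicate 2) and 0 lower, and of 13 lymphocyte markers 4 were higher and 1 lower. Of 5 neutrophil markers 3 were higher and 1 lower. Of 6 erythroid markers 1 was higher (2 without replicate 2) and 1 lower, and of 6 pancreatic acinar markers 1 was higher and 2 lower. The part of these shifts in the other results was not tested.

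Among the 10 genes in which replicate 2 lay furthest below the other 5 mice were Gpnmb, Pnpla3, Col1a1, Ly6d, Xlr3c, Pbk and Elovl6. It differed from the mean of the other 5 mice by more than 1 log2 unit in 624 genes, 200 higher and 424 lower, against 69 to 171 genes for each of the other mice. Among the 521 genes that lay at least 1 unit from the pool in the mean of the other 5, replicate 2 had the same sign in 79.1%, against 98.6 to 99.8% for the other mice by the same measure, and its median ratio was 0.50 of theirs. Only 19 genes were more than 1 unit from the pool in both but in opposite directions. Col1a1, a chain of type I collagen, had 1.66, -1.37, 2.72, 2.37, 2.80 and 1.26, and Col1a2, the other chain, 0.87, -0.20, 1.55, 1.31, 1.64 and 0.75. Ly6d, a gene of a surface protein with a lipid anchor, had 1.71, -2.03, 2.36, 2.33, 2.63 and 1.99. Gpnmb, a glycoprotein of macrophages that handle lipid, had 3.81, -0.34, 4.55, 3.85, 4.87 and 1.26, and was above background on 8 of 12 RSG arrays and 1 of 12 pool arrays. Xlr3c, an X-linked gene, had 3.00, -2.19, 1.11, 1.73, 0.15 and 0.98. Of the genes where it was higher, Irgm2, an interferon-inducible GTPase, had -0.36, 1.75, -0.21, -1.22, -0.53 and -0.80, the highest value being that of replicate 2. The ratios of Cfd, Elovl7 and Ehhadh in replicate 2 lay within the range of the other 5 mice.

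**Figure D3:**
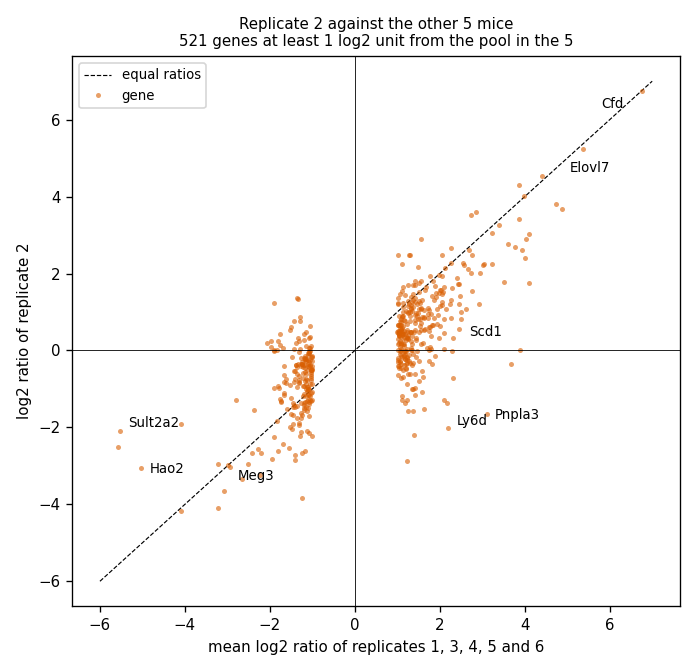
Log2 ratio over the pool of replicate 2 (y axis) against the mean of the other 5 RSG 280 mice (x axis) for the 521 genes at least 1 log2 unit from the pool in that mean; the dashed line marks equal ratios. Cfd, Elovl7 and Meg3 lie close to the line, Scd1 and Sult2a2 lie closer to 0 in replicate 2, and Pnpla3 and Ly6d lie on the other side of 0.

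**Figure D4:**
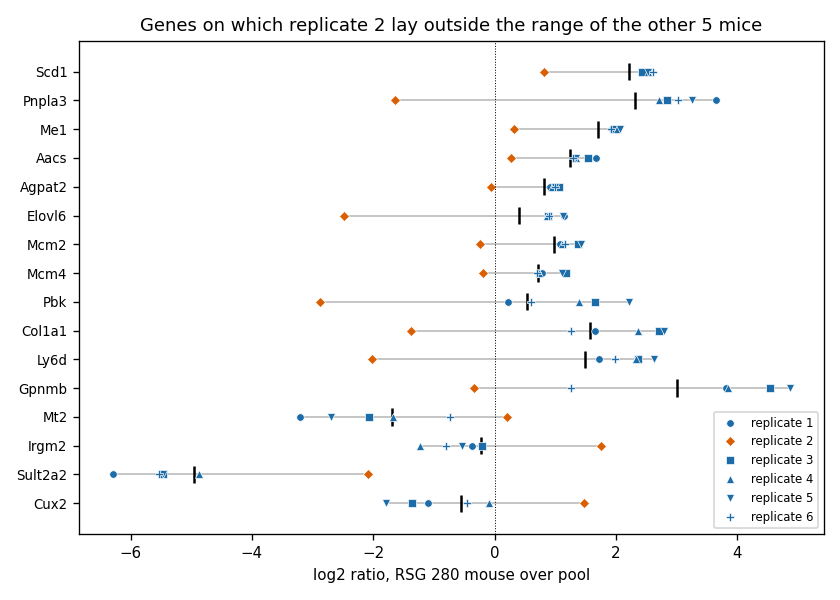
Log2 ratio over the pool (x axis) of 16 genes in which replicate 2 (orange) lay outside the range of the other 5 RSG 280 mice (blue); the black bar is the mean of all 6. Lipogenesis, cell cycle, collagen and Gpnmb values were lower in replicate 2, and Mt2, Irgm2, Sult2a2 and Cux2 values were higher.

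The comparison between doses asked whether 280 µmol/kg differed from the lower doses of 28 and 84 µmol/kg, with the pool cancelling. Against 28 µmol/kg, 3 of 26026 probes (0.0115%) were called, all higher at 280 µmol/kg, and 3695 probes had an unadjusted p under 0.05. Against 84 µmol/kg, 0 probes (0%) were called by limma and 1903 had an unadjusted p under 0.05. Without replicate 2 at 280 µmol/kg, the counts at an unadjusted p under 0.05 were 2235 against 28 µmol/kg and 1224 against 84 µmol/kg. A probe that was not called is not shown to be equal. Enpp2, which encodes autotaxin, the enzyme that makes lysophosphatidic acid, had 0.44, 0.73, 0.69, 0.83, 0.69 and 0.89 at 280 µmol/kg, against 0.16, 0.34, 0.25, 0.13, -0.13 and 0.43 at 28 µmol/kg; all mice at 280 µmol/kg were above all mice at 28 µmol/kg, by a narrow margin. The difference was 0.51 ± 0.09 (SE, adjusted p = 0.0398), and the mean at 84 µmol/kg, 0.44, lay between. Eef2k, a kinase that slows translation, had 0.42, 0.30, 0.24, 0.04, 0.29 and 0.26 at 280 µmol/kg, against -0.27, -0.17, -0.60, -0.16, -0.31 and -0.03 at 28 µmol/kg, with no overlap (difference 0.52 ± 0.09, adjusted p = 0.0254). Its second probe, matched to another transcript, differed by 0.15 ± 0.20 (adjusted p = 0.801) and had a mean of -0.39 against the pool. The third call was a probe that the files match only to the transcript AK033165, with a difference of 1.301 ± 0.24 (adjusted p = 0.0398) and 0.18 to 1.14 at 280 µmol/kg, against -1.48 to 0.05 at 28 µmol/kg. The count turned on single mice: with each mouse dropped in turn there were 0 to 31 calls, 31 of them without replicate 5 at 280 µmol/kg. The calls were also lost (0 probes) with scan day as a block and with slide as a random block; the mice at 28 µmol/kg were scanned on 3 days, only 1 of which was shared with 280 µmol/kg. Without replicate 2, 0 probes were called in the same fit, with an adjusted p of 0.103 for Enpp2 and 0.0513 for Eef2k.

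Other genes with small p did not reach the threshold. Against 28 µmol/kg these were Foxa3, a hepatocyte transcription factor (0.66 ± 0.14, adjusted p = 0.0752), Epop (0.76 ± 0.16, adjusted p = 0.0752), Fetub, a plasma protein of the fetuin family (0.66 ± 0.12, adjusted p = 0.0537), and Rcbtb2, which was lower by -0.25 ± 0.05 (adjusted p = 0.0566). Against 84 µmol/kg they were Slc25a51, a mitochondrial carrier of NAD (-0.33 ± 0.06, adjusted p = 0.237), Selp, P-selectin (0.28 ± 0.06), L1cam (0.57 ± 0.13), Csgalnact1 (0.36 ± 0.08), Proca1 (-0.42 ± 0.10) and Pcdh19 (-0.68 ± 0.15), the last 5 at an adjusted p of 0.435. Slc25a51 (-0.29 ± 0.06), Stap1 (-1.03 ± 0.23), Slco1a4 (0.86 ± 0.20) and Ehhadh (0.42 ± 0.10) had an adjusted p of 0.0752 against 28 µmol/kg. Apoa1 had 1.13 to 1.71 at 280 µmol/kg, against 0.54 to 1.15 at 28 µmol/kg (adjusted p = 0.101), and Socs2 0.63 to 1.91 at 280 µmol/kg, against -0.42 to 1.19 at 28 µmol/kg (adjusted p = 0.131).

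**Figure D5:**
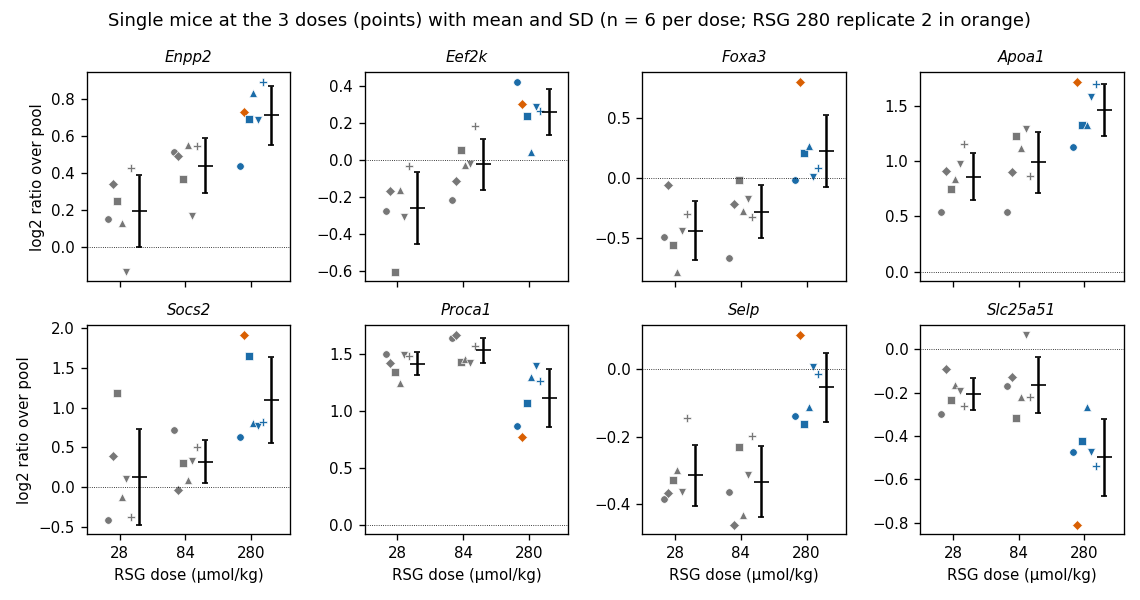
Log2 ratio over the pool (y axis) of single mice at 28, 84 and 280 µmol/kg RSG (x axis, n = 6 each), with the mean and SD in black, for 8 genes; at 280 µmol/kg replicate 2 is orange and the other mice are blue. Only Enpp2 and Eef2k of these were called between 280 and 28 µmol/kg, and neither shows an overlap between those doses.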

How the data were processed

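Total RNA of each treated liver and of the control pool was labelled with Cy3 and Cy5 and hybridised to 44K mouse arrays of Agilent design, 2 arrays per mouse with the dyes swapped. The authors' scanner software, Agilent Feature Extraction (version 9.5 per the labels), subtracted local background and normalised the dyes. It wrote the log10 ratio of red over green for each spot, along with processed intensity values. Both were used as deposited, the log10 ratio for every main test and the intensity values for detection and for bounds. The normexp alternative started from the raw signals of the spots. The direction of each array came from the dye named for the treated sample. A deposited table of log10 ratios, 1 column per sample, served as an alternative; 48 of its columns belong to samples not analysed here. Probe positions are those of the files (mm8), and the promoters are RefSeq sequences of GRCm38.p6.

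Ratios were turned to treated over pool and converted to log2, and spots that the software flagged as outliers were left out. Ratios were averaged first over the 2 arrays of a mouse at each spot and then over the spots of a probe. Control spots were left out, and of 41174 probes 26026 passed the filter on dim probes. Symbols came from the files, updated through RefSeq tables by accession (23374 probes) or by an older symbol (2919 probes). limma 3.58.1 (R 4.3.3) was fitted over 36 treated liver mice in 6 groups, 3 of them given a second compound that is not described here, and group means were tested against 0 or against another dose, two-sided, with Benjamini-Hochberg adjustment over all tested probes. Gene counts use the brightest probe of a gene. Arrays give no counts, so the number of arrays limits the precision. The labels do not say more of the replicates than that they are biological.

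Genes were named by a rule: the 15 highest and 15 lowest called genes with the same sign in all 6 mice, the 4 smallest p of each gene list with the strongest gene against its majority, the 10 highest and 10 lowest differences of replicate 2 from the other mice, the 10 largest ratios of mean to SD at 1 log2 unit or more, and the genes leading each dose comparison; the text gives a selection of these, and some genes are not reported here. The members, lists and rules were chosen with earlier results of these data known. The fit was tested on simulated data. Alternatives changed the background correction, the table, the dye, the weights, the centring, the filter, the samples in the fit, the blocks for replicate number, scan day and slide, and the mice left out.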

Additional observations from a re-analysis of the deposited data

Results flagged for a closer look

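In some results a single mouse lay far from the other 5 RSG 280 livers, measured as its gap to the nearest other mouse over the range of all 6. Chance alone gives such a gap, whichever of the 6 mice shows it, in about 1 of 20 groups. The shares that follow are for 1 given mouse, so that figure is not their background. Some of the genes below were named because replicate 2 differed most in them, so their flag is no separate support. Over all 17820 genes replicate 2 was the mouse apart in 1996 genes (11.2%), and replicate 1 in 157 (0.881%).

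Replicate 2 lay below the other 5 mice in genes of fat synthesis and storage, with log2 ratios over the pool of -2.47 for Elovl6, -1.64 for Pnpla3, -0.066 for Agpat2, 0.27 for Aacs, 0.33 for Me1, 0.33 for Dbi, 0.82 for Scd1 and 1.32 for Elovl3. In cholesterol and lipoprotein genes it lay below them at -0.69 for Acat2, -0.039 for Sc5d, 0.32 for Abca1 and 1.15 for Pltp. The other genes in which it was the low mouse were Ly6d (-2.03), Col1a1 (-1.37), Slc25a15 (-1.29), Cpt2, the inner carnitine palmitoyltransferase of mitochondria (-0.46), Mcm2 (-0.24), Mcm4 (-0.19), Gpr182 (0.22), Cyp2c55 (0.46) and Asns (0.47). It was the high mouse for Sult2a2 (-2.08), F5 (-0.13), Hnf4a (-0.12), Rxra (-0.11), Cyp2d10 (0.052), Foxa3 (0.80) and Irgm2 (1.75). Among the list medians it lay apart for lipogenesis (-0.20), pentose phosphate and NADPH (0.042) and endothelial markers (-0.14).

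Replicate 1 lay apart for Rian (-3.63), Slco1a1 (-1.47) and Meg3 (-2.86), and for the median of the Dlk1-Meg3 region (-2.86), which is the value of Meg3. Replicate 6 lay apart for the muscle genes Myh1 (-0.31), Myh8 (-0.33), Mb (-0.33), Myl1 (-0.50) and Ckmt2 (-0.54), and for the median of the muscle markers (-0.31).

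Between doses, 3 probes differed in the test of 280 against 28 µmol/kg itself: Enpp2 by 0.51, Eef2k by 0.52 and the transcript AK033165 by 1.301 log2 units, each higher at 280 µmol/kg.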

How the results depend on the processing

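The count of 13245 probes that differed from the pool stayed between 10413 and 15218 in refits of all 6 mice, and between 11402 and 13653 with 1 mouse left out; over the 2 mice of the second scan day alone it was 8195. At the thresholds of the study, 3637 probes, it was 1953 after normexp background correction and 3129 to 4170 with 1 mouse left out.

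The 3 calls of 280 against 28 µmol/kg became 8 with a stricter filter on dim probes, 22 with array weights, 1 after normexp correction, 1 with no filter, and 0 with the treated sample read in Cy5 only, with the spread of the compared mice alone, with scan day as a block, with slide as a random block and within the second scan day (2 against 2 mice). With 1 mouse left out it was 0 to 31: at 280 µmol/kg 1, 0, 4, 9, 31 and 0 without replicates 1 to 6, and at 28 µmol/kg 0, 1, 0, 2, 0 and 7. Against 84 µmol/kg the count of 0 became 1 with the treated sample read in Cy3 only and 0 to 1 with 1 mouse left out, the call being made without replicate 4 at 280 µmol/kg. An alternative chosen after seeing the data, only the mice compared and without replicate 2, gave 0 calls against 28 µmol/kg.

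The labels give the groups the same replicate numbers, but do not say that a number marks a shared batch, and the correlation of deviations of same-numbered mice was over 0.1 in 4 of 6 pairs between 280 and 28 µmol/kg (-0.06 to 0.30) and in 1 of 6 between 280 and 84 µmol/kg (-0.08 to 0.17), so they were not taken as pairs. Of the 6 mice at 280 µmol/kg, 2 correlated best with their own number among the mice at 28 µmol/kg, and 1 among those at 84 µmol/kg. With the replicate number as a block, 17 probes were called between 280 and 28 µmol/kg and 13899 against the pool.

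Of 117 called genes in the text, 103 kept their direction and their call in every alternative run for them. The direction turned for Hadh (-0.00028 with Cy5 only), for Plin1, which was not called (-0.0027 after normexp correction, -0.19 with Cy5 only, -0.039 to 0.11 with 1 mouse left out, below 0 without replicate 1 and without replicate 6, -0.11 with the scan day block, -0.088 within the first scan day), and for the median of sphingolipid synthesis (-0.011 with Cy5 only). The causes were not tested. Probes near background in 1 or both channels limit the ratios of, among others, Nat8l, Meig1, Ankrd22, Fabp5, Ccdc146, Gpnmb, Hao2, Slco1a1, Rian, Mirg, Plin1, Cux2 and the 5 muscle genes.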
